A study of Mus musculus with 4 samples.

Results

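Wnt pathway genes were followed in the liver of mice fed without methionine and choline (MCD diet). They were chosen by symbol: every Wnt, Frizzled (Fzd), secreted Frizzled-related (Sfrp), Dickkopf (Dkk) and R-spondin (Rspo) gene, and 15 further receptors, regulators and targets from Axin1 to Notum. Of these, 56 were among the 22180 genes tested, and Tcf7 was not analysed here. Wild-type males of the inbred strain C57BL/6J received the MCD diet or a normal diet from 6 weeks of age for 20 weeks. Each diet was represented by 2 liver samples, each on its own Mouse Gene 2.1 ST array, which gives a signal per transcript row on a log2 scale. The titles number the samples as mice; nothing else says how they were taken, so p-values cover only the variation among these 4 samples. The composition of the normal diet is not given in the sources used here.

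Wnt ligands are lipid-modified secreted proteins that bind Frizzled receptors with the co-receptors Lrp5 and Lrp6. This releases beta-catenin, encoded by Ctnnb1, from a destruction complex that is built on Axin, and beta-catenin then acts in the nucleus with TCF and LEF proteins. The ubiquitin ligases Rnf43 and Znrf3 clear Frizzled receptors from the cell surface, and R-spondins, bound to Lgr4 or Lgr5, block these ligases. In the liver, endothelial cells of the central vein supply Wnt2, Wnt9b and Rspo3, and the hepatocytes around that vein keep a beta-catenin programme that sets them apart from periportal hepatocytes.

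The tissue label was checked first. Alb, the albumin gene, had log2 signals of 11.99 and 11.93 in MCD diet livers, against 12.04 and 11.96 in normal diet livers. The 10 hepatocyte markers had summed linear signals of 19870 and 19240 in MCD diet livers and 21430 and 21180 in normal diet livers. Over all genes, log2 values of paired arrays differed with an SD of 0.274 within the MCD diet and 0.267 within the normal diet, against 0.528 to 0.598 between diets. Array medians lay between 2.57 and 2.65. Precision is limited by the 4 arrays, and signal over background was not analysed.

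In MCD diet livers the signal of Dkk3, Wnt4, Rspo3 and Axin2 rose and that of Fzd8, Lgr4 and Wnt9a fell. These 7 of the 56 genes (12.5%) were called by limma at an adjusted p under 0.05. Of all genes 9.98% were called, 6.37% higher and 3.62% lower. The share among the Wnt pathway genes is thus near the background, and the median difference was -0.02 over these genes and -0.03 over all genes. Calls were rarer among dim genes. Among genes above the median signal of all genes, 5 of 23 Wnt pathway genes were called, 3 higher and 2 lower, beside 18.1% of all such genes (11.5% higher and 6.61% lower). Among those below it, 2 of 33 were called, 1 in each direction, beside 1.84% of all such genes (1.22% higher and 0.622% lower). For 31 of the 56, the arrays of one diet all lay above those of the other. The MCD diet arrays were above for 14 genes, beside 25% of all genes, and below for 17, beside 29.2% of all genes. Taken over both directions, 54.2% of all genes showed no overlap.

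**Figure D1:**
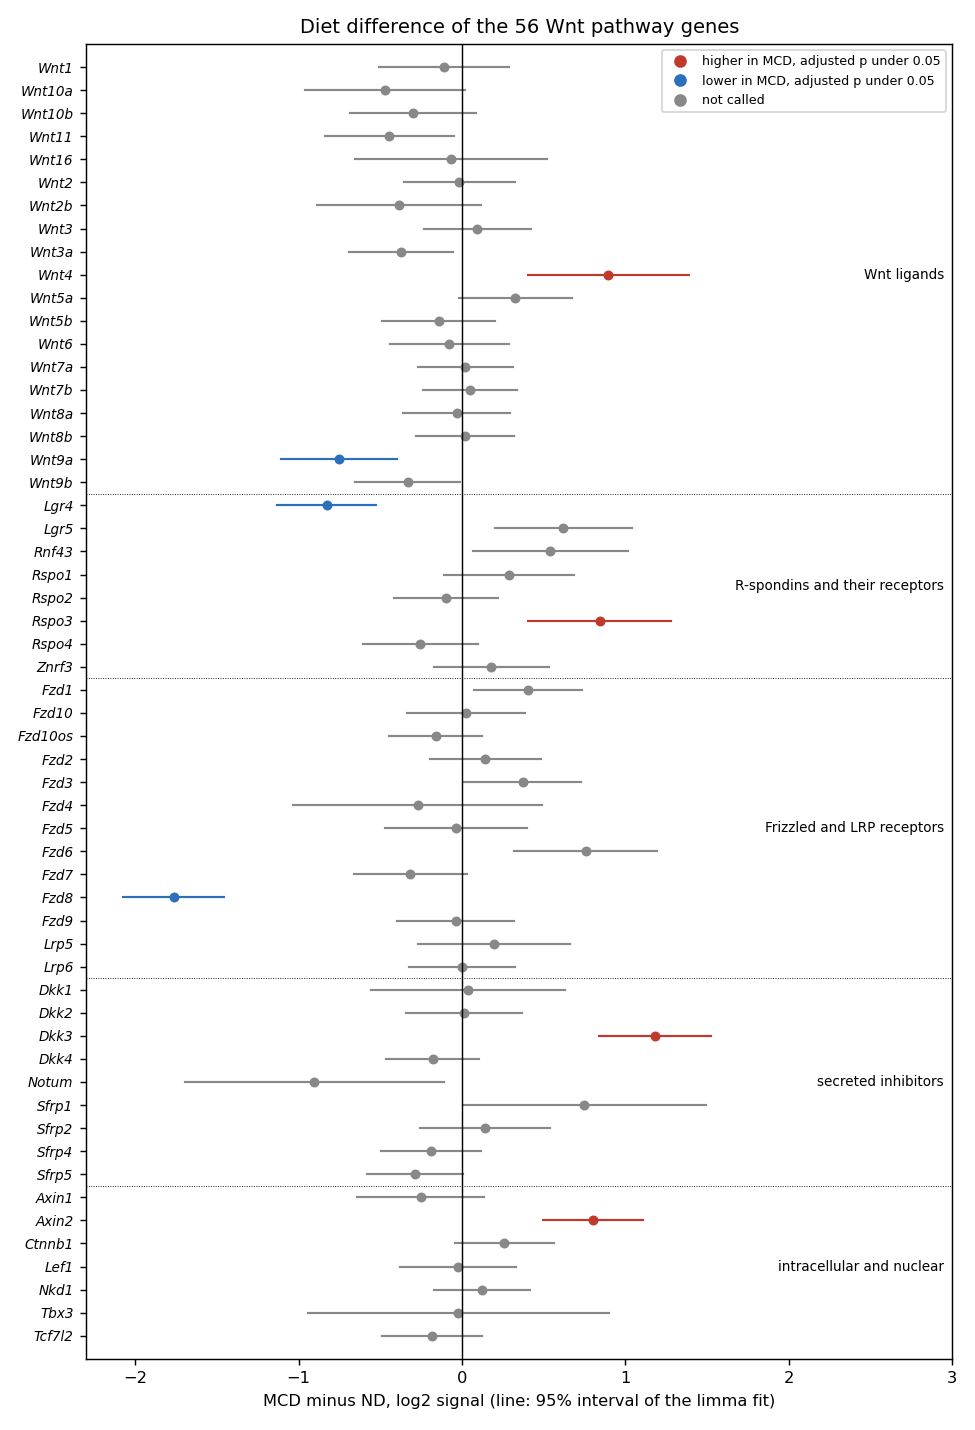
MCD minus normal diet difference (log2 signal, x axis) of the 56 Wnt pathway genes, grouped by role; points are differences and lines their 95% intervals from the limma fit (n = 2 arrays per diet). Fzd8 at -1.76 and Dkk3 at 1.18 lie farthest from 0, and 49 genes in grey were not called.

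**Figure D2:**
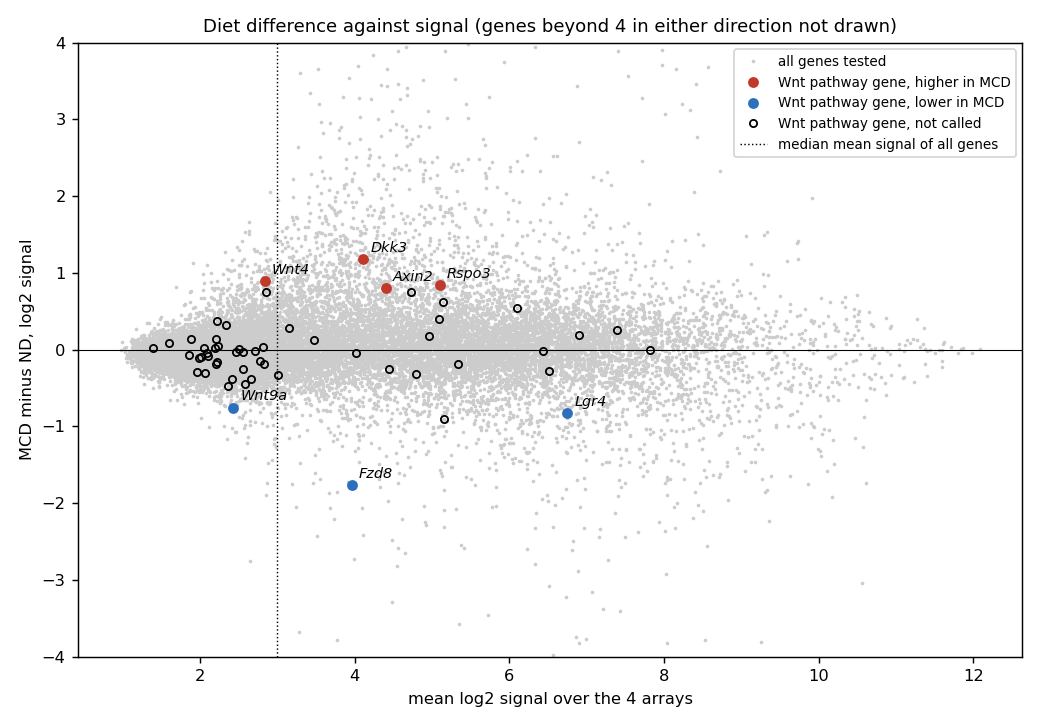
MCD minus normal diet difference (y axis, log2 signal) against the mean log2 signal over the 4 arrays (x axis) for all genes in light grey and the Wnt pathway genes as circles, filled where called. Most Wnt pathway genes, 33 of 56, lie left of the median signal of all genes (dotted line), where few genes of any kind were called.

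The signals of the Wnt ligands were low. All 19 were measured, and 18 had a mean signal below the median of all genes; Wnt9b lay just above it. Wnt4, a ligand with roles in kidney and reproductive tract development, had log2 signals of 3.36 and 3.21 in MCD diet livers, against 2.67 and 2.11 in normal diet livers. The MCD diet arrays were both higher, and the normal diet arrays were 0.55 apart. Wnt4 rose by 0.90 ± 0.20 log2 units, or 1.86-fold (limma adjusted p = 0.0451). Here and below, ± gives limma's moderated standard error of a log2 difference, with 2 arrays per diet. Moderation draws each gene's spread toward that of all genes, so for a noisy gene ± is smaller than its own arrays alone would give. The call of Wnt4 was lost under quantile normalization, under median centring, without either MCD diet array and without normal diet replicate 2. Wnt9a had signals of 1.89 and 2.20 in MCD diet livers and 2.79 and 2.81 in normal diet livers, with no overlap. It fell by 0.75 ± 0.15 (1.69-fold lower; limma adjusted p = 0.0292), a call that was lost without MCD diet replicate 1 and without either normal diet array. Since both genes were near the bottom of the signal range, the sizes of their differences are uncertain.

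The central vein ligands did not pass the test. Wnt2 had signals of 2.77 and 2.65 in MCD diet livers, against 2.60 and 2.84 in normal diet livers, so the diets overlapped. Its difference was -0.02, with a 95% interval of -0.36 to 0.32. Wnt9b had signals of 2.84 and 2.86 in MCD diet livers, against 3.07 and 3.29 in normal diet livers. Its arrays did not overlap, and its difference of -0.33 ± 0.13 had a limma adjusted p of 0.194. The other 15 ligands, which were not called, differed by between -0.47 (Wnt10a) and 0.33 (Wnt5a). Over all 19 the difference was below 0 for 13 and above 0 for 6. Dim genes in general leaned the same way: of all 11090 genes below the median signal, 7443 were below 0 and 3647 above. In the non-canonical group, which acts largely without beta-catenin, Wnt5a had signals of 2.37 and 2.63 in MCD diet livers and 2.22 and 2.12 in normal diet livers, and Wnt11 had 2.35 and 2.38 in MCD diet livers and 2.61 and 3.01 in normal diet livers.

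Among the R-spondins and the proteins they act through, a ligand rose and a receptor fell. Rspo3, the R-spondin of the central vein, had log2 signals of 5.30 and 5.74 in MCD diet livers, against 4.77 and 4.58 in normal diet livers. It rose by 0.84 ± 0.18 (1.79-fold; limma adjusted p = 0.0386), and quantile normalization removed the call, as did leaving out MCD diet replicate 2 or either normal diet array. Rspo1 differed by 0.29, Rspo2 by -0.10 and Rspo4 by -0.26, none of them called. Lgr4, the R-spondin receptor found on hepatocytes in all zones, had signals of 6.30 and 6.36 in MCD diet livers, against 7.23 and 7.09 in normal diet livers. The pairs were tight and did not overlap, and Lgr4 fell by 0.83 ± 0.12 (1.77-fold lower; limma adjusted p = 0.0127). The call was lost without MCD diet replicate 1 or normal diet replicate 1. Lgr5, the receptor that is confined to pericentral hepatocytes in the normal liver, had signals of 5.30 and 5.61 in MCD diet livers, against 4.99 and 4.68 in normal diet livers. Its difference of 0.62 ± 0.17 missed the threshold (limma adjusted p = 0.08), with a 95% interval of 0.20 to 1.04. Whether Lgr4 and Lgr5 differ in their response was not tested.

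The ligases that R-spondins inhibit were higher on average without a call. Rnf43 had signals of 6.19 and 6.56 in MCD diet livers, against 5.64 and 6.03 in normal diet livers. The lower MCD diet array lay only just above the higher normal diet array, and the difference was 0.54 ± 0.19 (limma adjusted p = 0.157). Znrf3 had signals of 5.17 and 4.91 in MCD diet livers and 4.93 and 4.80 in normal diet livers, which overlap, and differed by 0.18 ± 0.14.

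The largest difference of any Wnt pathway gene was that of a receptor. Fzd8 had log2 signals of 3.02 and 3.14 in MCD diet livers, against 4.91 and 4.78 in normal diet livers. It fell by 1.76 ± 0.13 (3.40-fold lower; limma adjusted p = 0.0013), and the call held under all 13 alternatives. Fzd6, a receptor known from planar cell polarity and hair patterning, had signals of 5.33 and 4.88 in MCD diet livers, against 4.27 and 4.42 in normal diet livers. At 0.76 ± 0.18 it just missed the threshold (limma adjusted p = 0.0526), and it was called when the dimmest 25% or 50% of genes were left out and without MCD diet replicate 2. Of the other 11 rows of this group, Fzd1 (0.40), Fzd3 (0.37), Fzd7 (-0.32) and Fzd10os (-0.16) had no overlap between diets but were not called. Fzd4 had signals of 6.19 and 6.56 in MCD diet livers, against 6.18 and 7.12 in normal diet livers, so its normal diet arrays differed by 0.94. The co-receptor Lrp6 differed by 0.00 (95% interval -0.32 to 0.32) and Lrp5 by 0.19 (-0.27 to 0.66). The symbol rule also took in Fzd10os, a transcript from the strand opposite Fzd10 that is not a Frizzled receptor gene.

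**Figure D3:**
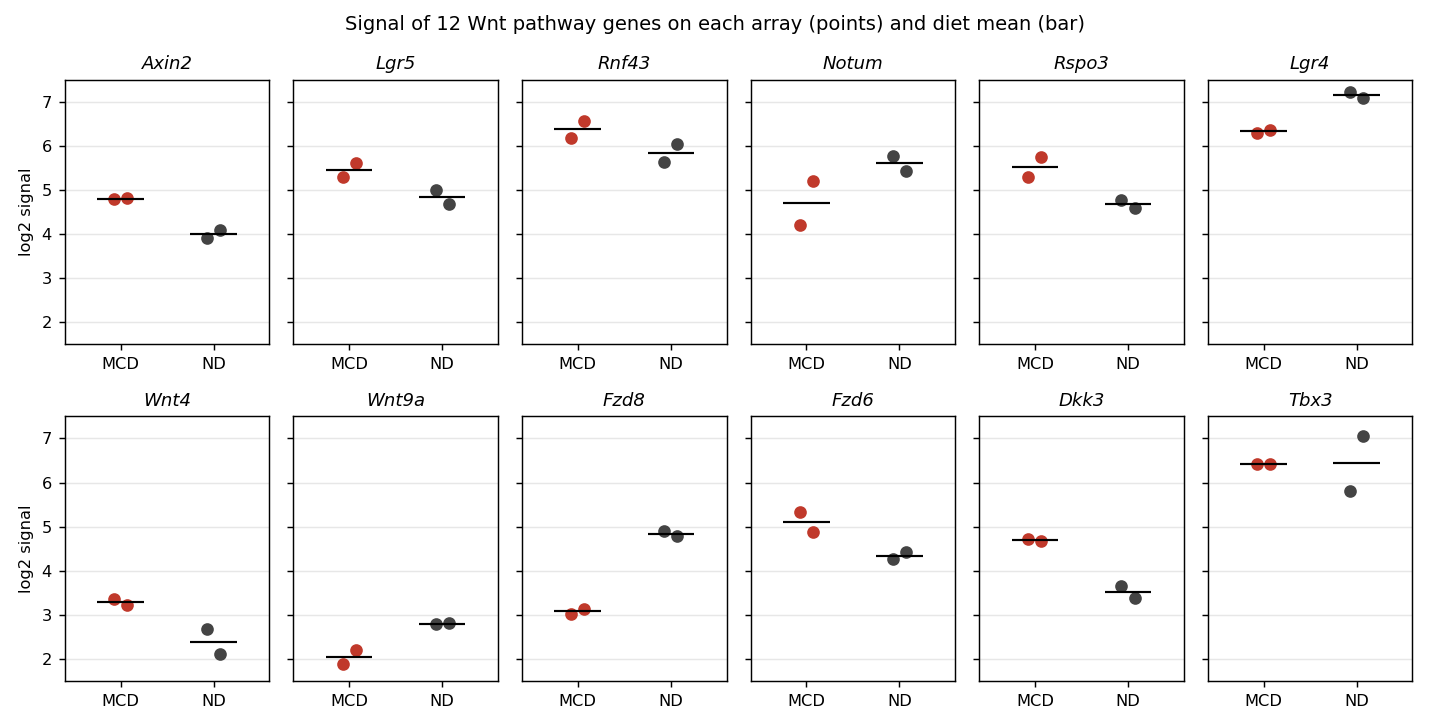
log2 signal (y axis) of 12 Wnt pathway genes on each array, MCD diet left and normal diet (ND) right in each panel; points are single arrays and bars the mean of 2. Fzd8 and Dkk3 show tight pairs far apart, whereas the normal diet pair of Tbx3 spans 5.82 to 7.07 and the MCD diet pair of Notum 4.20 to 5.20.

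Of 9 secreted inhibitors 1 was called (11.1%, near the 9.98% of all genes). Dkk3, a Dickkopf relative whose action on Wnt receptors is less direct than that of Dkk1, had log2 signals of 4.73 and 4.67 in MCD diet livers, against 3.65 and 3.38 in normal diet livers. It rose by 1.18 ± 0.14 (2.27-fold; limma adjusted p = 0.00568), and the call held under all 13 alternatives. The classical inhibitor Dkk1, which blocks Lrp5 and Lrp6, had overlapping signals of 2.53 and 3.12 in MCD diet livers and 3.02 and 2.56 in normal diet livers. Notum, a hydrolase that strips the lipid from Wnt ligands and is itself a beta-catenin target, had signals of 4.20 and 5.20 in MCD diet livers, against 5.78 and 5.44 in normal diet livers. It was lower in both MCD diet livers, but the MCD diet pair was 0.998 apart and the difference of -0.90 ± 0.32 was not called (limma adjusted p = 0.156). Without MCD diet replicate 2 the difference was -1.40 and passed. Sfrp1, which binds Wnt ligands outside the cell, had 2.75 and 3.71 in MCD diet livers, against 2.39 and 2.57 in normal diet livers, and its difference of 0.75 ± 0.30 was not called, though it was without MCD diet replicate 1. Sfrp2, Sfrp4, Sfrp5, Dkk2 and Dkk4 differed by between -0.29 and 0.14, with no call.

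Inside the cell, Axin2 was called. Axin2 belongs to the destruction complex and is a widely used readout of beta-catenin activity, because beta-catenin itself induces it. Its log2 signals were 4.79 and 4.82 in MCD diet livers, against 3.92 and 4.09 in normal diet livers. It rose by 0.80 ± 0.13 (1.74-fold; limma adjusted p = 0.0147). The call was lost without either MCD diet array and without normal diet replicate 1. The array holds a second, dimmer Axin2 row with signals of 2.50 and 2.53 in MCD diet livers and 2.63 and 2.68 in normal diet livers, a difference of -0.14, and the mean of both rows gave 0.33 without a call. Rows also disagreed in sign for Lgr5, Lrp6 and Sfrp2, whose dimmer rows differed by -0.19, -0.25 and -0.11. The dimmer row of Notum differed by -0.42, in the direction of the row used. The dimmer rows of Lgr5, Lrp6, Sfrp2 and Notum had mean signals of 2.15, 2.37, 2.19 and 2.24. All of these lie below the array medians of 2.57 to 2.65, as does the Sfrp2 row used (2.21).

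Ctnnb1 had signals of 7.60 and 7.45 in MCD diet livers, against 7.23 and 7.29 in normal diet livers. The difference of 0.26 ± 0.13 did not pass (limma adjusted p = 0.279). Axin1, the constitutive scaffold of the destruction complex, differed by -0.25 ± 0.16, and the transcription factor Tcf7l2, the main TCF of the liver, by -0.18 ± 0.13. Lef1, a related factor also expressed by lymphocytes, had signals of 2.33 and 2.57 in MCD diet livers, against 2.38 and 2.57 in normal diet livers.

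Of the 8 Wnt pathway genes that are known beta-catenin targets (Axin2, Lgr5, Rnf43, Znrf3, Nkd1, Tbx3, Notum and Lef1), a group put together after their values were seen, only Axin2 was called. This share of 12.5% is near the 9.98% of all genes and below the 18.1% of genes above the median signal, where 7 of the 8 lie. The differences of 5 were above 0 and of 3 below, with a median of 0.15. Nkd1, a feedback inhibitor, had signals of 3.49 and 3.57 in MCD diet livers, against 3.45 and 3.36 in normal diet livers (0.12 ± 0.12). Tbx3, a transcriptional repressor of pericentral hepatocytes, had 6.43 and 6.41 in MCD diet livers, against 5.82 and 7.07 in normal diet livers. The normal diet arrays thus lay on either side of both MCD diet arrays, 1.25 apart, and the difference of -0.02 ± 0.38 says little.

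**Figure D4:**
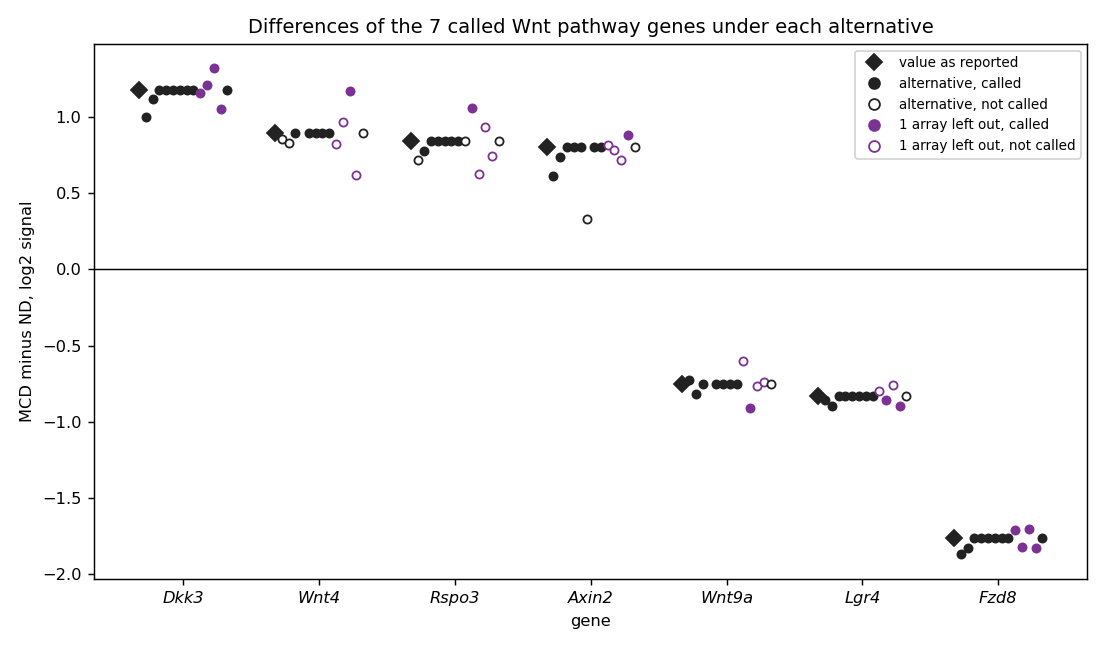
MCD minus normal diet difference (y axis, log2 signal) of the 7 called Wnt pathway genes (x axis) as reported (diamond) and under each alternative (circles, open where the call was lost; purple where an array was left out). Fzd8 and Dkk3 kept their calls throughout, and no called gene changed sign.

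The RefSeq promoter table (build GRCm38.p6) held the start of 34 of the 56 genes, among them Axin2, Lgr4, Wnt4 and Wnt9a of the called genes. Their 250 bases before the listed transcript start, which carry the promoters of genes that moved in both directions, were searched on both strands for the TCF/LEF motif, spelled CTTTGNN, with only adenine or thymine allowed at each N. Dkk1, which was not called, is printed beside them because its window holds the motif, in capitals, at 2 places. Each window is given 5′ to 3′ on its gene's strand.
Axin2, chr11:108920099-108920348, + strand: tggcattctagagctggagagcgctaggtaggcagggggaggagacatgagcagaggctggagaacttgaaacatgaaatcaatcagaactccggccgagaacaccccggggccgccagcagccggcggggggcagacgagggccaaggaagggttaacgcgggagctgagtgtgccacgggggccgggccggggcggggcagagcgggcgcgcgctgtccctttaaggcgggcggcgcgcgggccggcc
Wnt4, chr4:137277385-137277634, + strand: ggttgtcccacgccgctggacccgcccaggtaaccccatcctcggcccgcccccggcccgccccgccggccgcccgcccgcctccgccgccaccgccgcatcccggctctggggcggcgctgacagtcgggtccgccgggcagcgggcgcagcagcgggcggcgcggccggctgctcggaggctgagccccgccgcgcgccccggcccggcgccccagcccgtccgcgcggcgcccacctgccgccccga
Lgr4, chr2:109917397-109917646, + strand: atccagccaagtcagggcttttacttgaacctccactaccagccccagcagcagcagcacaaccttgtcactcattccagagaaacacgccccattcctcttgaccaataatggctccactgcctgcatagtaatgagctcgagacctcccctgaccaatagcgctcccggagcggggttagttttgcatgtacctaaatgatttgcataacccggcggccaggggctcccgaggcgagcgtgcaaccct
Wnt9a, chr11:59306680-59306929, + strand: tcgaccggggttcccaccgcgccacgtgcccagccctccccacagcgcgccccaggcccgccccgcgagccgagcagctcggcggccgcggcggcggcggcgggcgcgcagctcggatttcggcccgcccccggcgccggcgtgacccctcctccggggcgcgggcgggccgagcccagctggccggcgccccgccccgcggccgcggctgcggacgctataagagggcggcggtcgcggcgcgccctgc
Dkk1, chr19:30549497-30549746, - strand: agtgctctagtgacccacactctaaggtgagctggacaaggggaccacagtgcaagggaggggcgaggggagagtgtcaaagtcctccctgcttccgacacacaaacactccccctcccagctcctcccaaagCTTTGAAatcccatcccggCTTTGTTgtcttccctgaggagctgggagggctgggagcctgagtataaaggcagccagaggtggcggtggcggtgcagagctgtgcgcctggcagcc
The motif was in 0 of these 4 windows of called genes, in 6 of the 43 windows of Wnt pathway genes (14.0%) and in 14.8% of all 32851 windows. In Dkk1 it begins 117 and 98 bases before the start. The windows of Wnt4 and Wnt9a were 85.2% and 84.4% G and C, those of Axin2 and Lgr4 69.2% and 55.6%, and the median over all windows was 52.4%. An absent match says only that these letters are not in this window.

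Of 53 further measured genes of the pathway, 38 lie above the median signal of all genes, where 18.1% of all genes were called. The other 15 lie below it, where 1.84% were called. Of the 53 genes, 4 rose and 4 fell (15.1% called, beside 9.98% of all genes). Their median difference was -0.00453 on the log2 scale. Among those that rose were the gene needed to release Wnt ligands and another secreted inhibitor. Wls, the carrier that brings Wnt ligands to the cell surface, had log2 signals of 4.92 and 5.13 in MCD diet livers, against 3.81 and 3.75 in normal diet livers. It rose by 1.25 ± 0.13 (2.37-fold; limma adjusted p = 0.00405). Porcn, which attaches the lipid to Wnt ligands, overlapped between diets and differed by -0.03 ± 0.16. Frzb, a secreted Frizzled-related protein outside the symbol rule, had signals of 5.20 and 5.26 in MCD diet livers and 3.81 and 3.80 in normal diet livers, and rose by 1.42 ± 0.12 (2.68-fold; limma adjusted p = 0.00195). The kinase gene Csnk1e rose by 1.14 ± 0.14 and the nuclear co-factor Bcl9 by 0.61 ± 0.13. Whether the Csnk1e value includes signal of its close relative Csnk1d was not tested. Genes that fell were the planar cell polarity cadherin Celsr1 (by 0.99 ± 0.20), the TCF co-repressor Tle2 (by 0.88 ± 0.16), the cytoplasmic adaptor Dvl1 (by 0.67 ± 0.12) and the glypican Gpc4 (by 0.57 ± 0.12). The calls of Wls, Frzb and Csnk1e held under all 13 alternatives; those of Bcl9, Celsr1, Tle2, Dvl1 and Gpc4 were lost under 4 to 9 of them.

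Target genes were described by the zone or process they are known for. Nearly all of these target genes lie above the median signal of all genes, where 11.5% of genes rose and 6.61% fell. Of 15 pericentral beta-catenin target genes, 14 of them above that median, 2 rose and 3 fell (33.3% called, beside 18.1% of all genes above it), with a median of -0.04. Glul, the glutamine synthetase gene of the innermost pericentral hepatocytes, had log2 signals of 10.23 and 10.51 in MCD diet livers, against 9.98 and 10.08 in normal diet livers. Its difference of 0.34 ± 0.14 was not called (limma adjusted p = 0.218). Cyp2e1, a pericentral cytochrome P450, differed by -0.01 ± 0.12 at a signal near the top of the scale. Rhbg, an ammonium transporter, had 6.52 and 6.97 in MCD diet livers and 4.25 and 5.02 in normal diet livers and rose by 2.11 ± 0.28 (4.30-fold; limma adjusted p = 0.0085). Slc13a3, a dicarboxylate transporter, rose by 1.48 ± 0.22. Genes that fell were the sulfotransferase Sult5a1 (by 2.72 ± 0.13, to signals of 2.69 and 2.58 in MCD diet livers, against 5.28 and 5.43 in normal diet livers), the cytochrome P450 Cyp1a2 (by 1.15 ± 0.13) and Rgn (by 0.87 ± 0.19). Of 10 periportal genes, all above that median, 1 rose and 3 fell (40.0% called, beside the same 18.1%). Their median difference was -0.62, beside 0.05 over all genes above that signal, with 7 differences below 0 and 3 above. Ass1 (-1.61) and Pck1 (-1.49) were not called. Cdh1, which encodes E-cadherin, rose by 1.75 ± 0.34, with normal diet arrays 1.10 apart (6.79 and 5.70). Hal, the first enzyme of histidine breakdown, fell by 1.58 ± 0.17, the cytochrome P450 Cyp2f2 by 1.27 ± 0.13 and Sdhaf4 by 0.76 ± 0.15. The call of Slc13a3 was lost without normal diet replicate 1, and those of Rgn, Cdh1 and Sdhaf4 under 5, 2 and 4 of the 13 alternatives.

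Of 11 growth-related genes that beta-catenin is known to induce in other settings, 9 rose and 0 fell, with a median of 1.72, while 6.37% of all genes and 11.5% of those above the median signal rose. This list was drawn up with the rises of Ccnd1, Mmp7 and Epcam in these data already known, so its count is not independent evidence of a direction. Ccnd1, the cyclin that drives entry into the cell cycle, had log2 signals of 8.20 and 8.30 in MCD diet livers, against 5.62 and 5.48 in normal diet livers (rise of 2.70 ± 0.13, 6.51-fold; limma adjusted p = 0.000357). Mmp7, a matrix metalloproteinase, rose by 5.26 ± 0.24, Epcam by 2.35 ± 0.19 and Sox9 by 2.003 ± 0.16. The others that rose were Cd44, Sox4, Id2, Myc and Jag1, by 1.05 to 1.81, and Birc5 and Vegfa were not called. All of these genes have other inducers, and Epcam and Sox9 are also cholangiocyte markers.

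**Figure D5:**
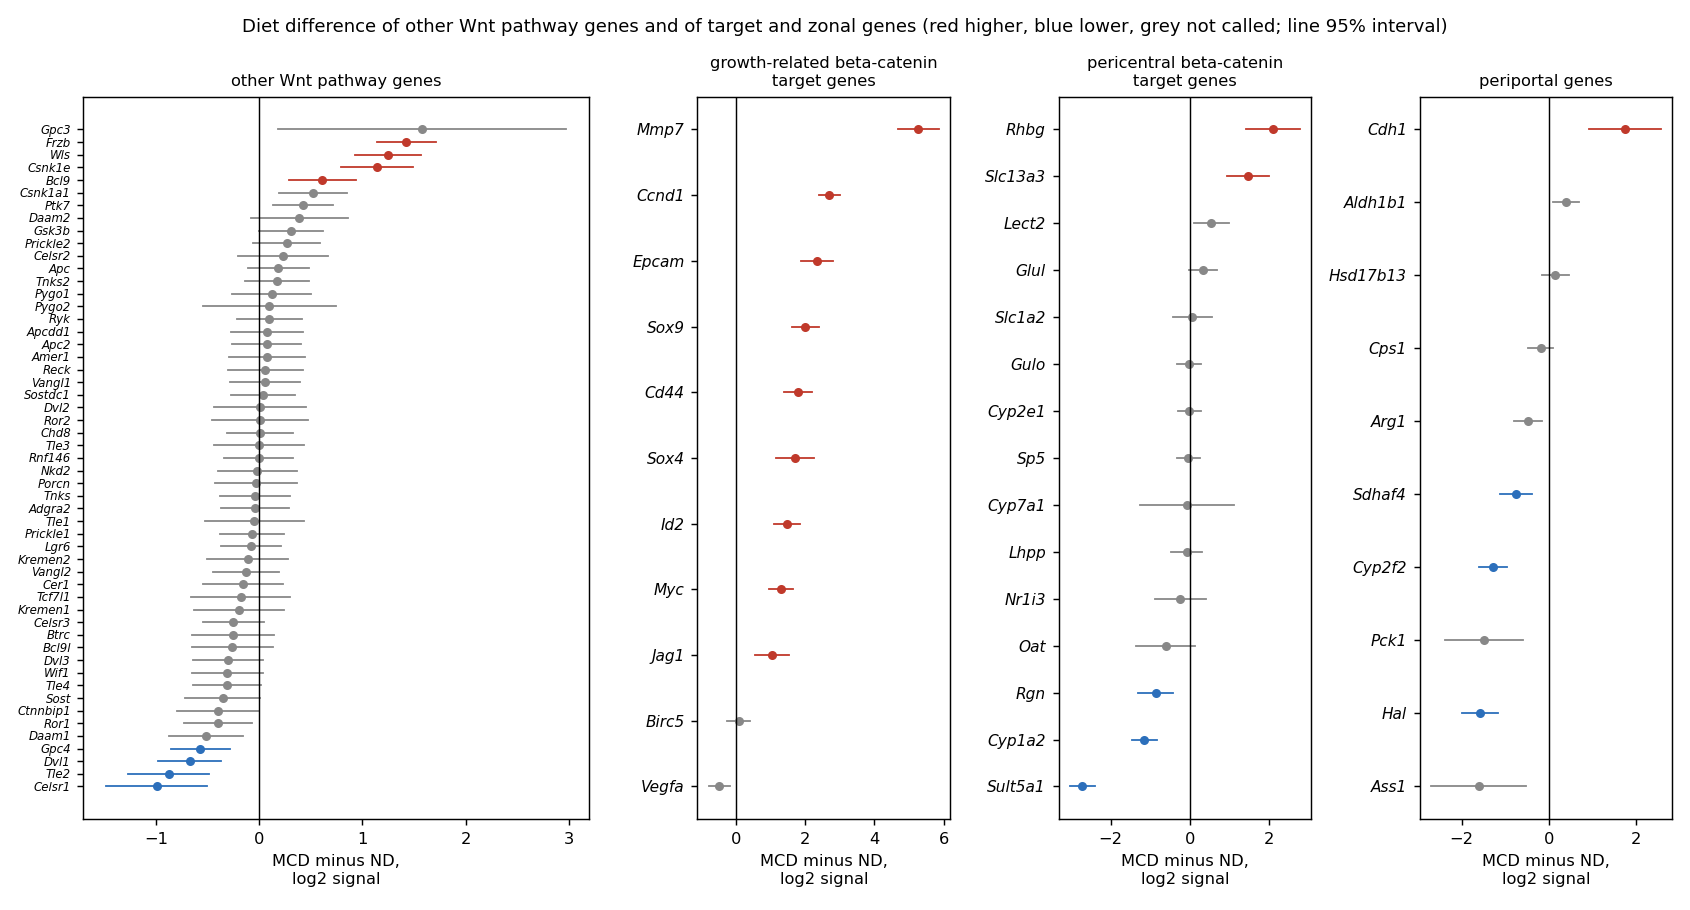
MCD minus normal diet difference (x axes, log2 signal, each panel with its own scale) of 53 further Wnt pathway genes, 11 growth-related targets, 15 pericentral targets and 10 periportal genes; lines are 95% intervals, red genes rose, blue genes fell and grey genes were not called. Growth-related targets lie mostly right of 0, and pericentral targets on both sides.

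Markers of cells that make or receive Wnt signals were read beside the share of all genes called, which was 9.98%, or 18.1% above the median signal. In a bulk sample fewer cells of a type and less RNA per cell cannot be told apart. Of 12 stellate cell and fibroblast markers 7 rose and 1 fell. Their summed linear signal was 2085 and 2075 in MCD diet livers, against 1063 and 866 in normal diet livers. Without Dcn, which gained most, these sums were 683.3 and 750.0 in MCD diet livers and 490.3 and 391.7 in normal diet livers. The marker that fell was Ecm1, with a difference of -1.13. Of 10 hepatocyte markers 0 rose and 2 fell, a share of 20.0%. Of all genes above the median signal 18.1% were called in either direction and 6.61% fell. The hepatocyte marker differences were below 0 for 7 and above 0 for 3, with a median of -0.20. All 8 cholangiocyte markers measured rose, at sums of 317.1 and 317.2 in MCD diet livers and 73.6 and 66.1 in normal diet livers. Without Bicc1, which gained most, they were 179.7 and 190.8 in MCD diet livers and 58.7 and 52.2 in normal diet livers. Of 10 macrophage markers 5 rose and 2 fell, at sums of 2060 and 1362 in MCD diet livers and 328 and 308 in normal diet livers. Without Gpnmb, which added most to them, these sums were 1042 and 655 in MCD diet livers and 323 and 302 in normal diet livers. Of 12 endothelial markers 0 rose and 2 fell (Stab2 by 0.82 ± 0.15 and Kdr by 0.76 ± 0.13), at sums of 815 and 739 in MCD diet livers and 1003 and 895 in normal diet livers. All 12 lie above the median signal, and their share of 16.7% is near the 18.1% called there in either direction. Only 6.61% of genes there fell. The marker differences were below 0 for 10 and above 0 for 2, with a median of -0.30, beside 0.05 over all genes above the median signal. Of 10 T cell markers 1 rose and 0 fell, at sums of 135 and 109 in MCD diet livers and 67.2 and 66.9 in normal diet livers (the gene was Il7r, named after its value was seen). Il7r carried the difference of these sums, which without it were 63.1 and 71.5 in MCD diet livers and 62.9 and 62.2 in normal diet livers, and the share of 10.0% called is near that of all genes. The dimmest value on these lists was 1.71, that of Cd3d, which is below the array medians of 2.57 to 2.65. Whether dim markers were above background was not analysed. The part of these cell types in the differences of Rspo3, Dkk3, Axin2, Frzb, Wls and the growth-related targets was not tested.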

How the data were processed

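The deposited table holds 1 value per transcript row and array for 4 arrays. Per the submitters' processing notes, the authors used Transcriptome Analysis Console. No source used here gives its version, summarization or normalization. The authors' deposited values were taken to be log2 signals, a base inferred from the values (maximum 12.1), and all folds depend on it. Unused per-sample columns numbered 0.

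Of 34472 rows the platform annotation named 1 gene for 23521, several for 1814 and none for 9137. Where a gene had several rows (1082 genes), its brightest row by mean signal stood for it, which left 22180 genes; 5 of the 56 members had more than 1 row. RefSeq (GRCm38.p6) held 23328 of the 23521 rows' gene IDs and updated 0 symbols.

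Diets were compared with limma 3.58.1 in R 4.3.3 (two-sided, moderated, no block, no filter or pseudocount, 6.06 degrees of freedom after moderation), with Benjamini-Hochberg adjustment over all genes and a threshold of 0.05. The fit was tested on simulated data with known changes. With gene variances drawn from limma's own estimated prior, which favours limma, it met the recovery level set for the test. With the raw residual variances of these arrays, the version tried first, it recovered fewer changes and missed that level, so missed changes may be more common than the prior-based version shows.

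The members and lists were chosen with earlier results of these data known. Named genes were all called members, the members of each role with the largest differences, fixed core members, and the called genes of each list with the largest differences; others were named after their values were seen. Alternatives were quantile normalization, median centring, removal of the dimmest 25% or 50% of genes, moderation with an intensity trend, other uses of a gene's rows, a 2-fold change at an unadjusted p under 0.05, a replicate block and leaving out each array.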

Additional observations from a re-analysis of the deposited data

How the results depend on the processing

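The 4 higher Wnt pathway genes became 2 under quantile normalization, 1 with an unadjusted p under 0.05 and at least 2-fold change, and 2 to 3 when single arrays were left out. The 3 lower genes became 1 with that unadjusted rule and 1 to 4 without single arrays: 1 without MCD diet replicate 1, 1 without normal diet replicate 1, 4 without MCD diet replicate 2 and 2 without normal diet replicate 2. The 8 called genes among the other pathway genes became 4 with the unadjusted rule and 3 to 5 without single arrays, and the 5 pericentral ones 3 to 6. Counts of periportal (3 to 4) and growth-related genes (8 to 9) stayed within 1.5 times of 4 and 9 without single arrays. Over all genes the count of 2214 became 1155 with the unadjusted rule and 1050 to 1493 without single arrays. Called genes with differences below 1 on the log2 scale cannot meet the 2-fold rule. With the replicate number as a block, 3 Wnt pathway genes were higher and 3 lower, and Rspo3 lost its call; nothing ties the numbers across diets, and the deviations of same-numbered arrays had a correlation of 0.0537 across genes. Of 19 named Wnt pathway genes, Fzd8 and Dkk3 kept direction and call under all 13 alternatives, and Wnt9b, Lgr5, Rnf43, Znrf3, Ctnnb1 and Tcf7l2 kept direction and were called under none. Signs turned for genes near 0 that were not called. Under quantile normalization Lef1 differed by 0.0182, Nkd1 by -0.0447 and Cyp2e1 by 0.0814. Without single arrays Wnt2 ranged from -0.14 to 0.10, Lef1 from -0.15 to 0.10, Tbx3 from -0.65 to 0.60, Cyp2e1 from -0.0265 to 0.00766 and Porcn from -0.19 to 0.13. The causes were not tested. Wnt2, Wnt4, Wnt9a and Lef1 have no value without the dimmest 50% of genes, and the dim signals of most Wnt ligands limit what 2 arrays per diet can show.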

Other observations

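Several pathway genes differed between the MCD diet livers themselves; they were chosen after their values were seen. Gpc3, a glypican of fetal liver and hepatocellular carcinoma, had log2 signals of 5.03 and 3.07 in MCD diet livers, against 2.44 and 2.51 in normal diet livers, and was not called (limma adjusted p = 0.161). Both MCD diet livers were above both normal diet livers, and MCD diet replicate 1 was far above replicate 2. Sfrp1 ran the other way, with replicate 2 the higher of the MCD diet pair, and so did Notum. The periportal urea cycle gene Ass1 had 5.04 and 3.57 in MCD diet livers, against 6.09 and 5.74 in normal diet livers. The median gap between arrays of a diet over the 56 Wnt pathway genes was 0.149 for the MCD diet and 0.191 for the normal diet, beside 0.152 and 0.146 over all genes.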
